A study of Mus musculus with 6 samples.

Results

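Genes whose mutation gives fluid-filled cysts in the kidney, liver or pancreas were followed in the embryonic mouse pancreas, 10 in all: Pkd1, Pkd2, Pkhd1, Dzip1l, Prkcsh, Ganab, Sec63, Glis2, Glis3 and Vhl. They were taken by name as polycystins, fibrocystin and other cystic disease genes. No measured value entered that rule, but it was drawn up with earlier results of these data known. All 10 were found by Ensembl identifier among the 24389 genes of each library. The libraries were made from dorsal pancreas of embryos at E13.5. There were 3 Bicaudal C1 (Bicc1) knockout libraries (KO 1 to KO 3) and 3 wild-type libraries (WT 1 to WT 3), all on a mixed C57BL/6 and ICR background. The labels give neither the knockout allele nor whether a library came from 1 embryo or a pool, so the p-values measure the spread between these libraries, which may be technical. All 10 genes had a mean value of at least 1 and were among the 13911 genes tested.

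Cysts form when an epithelial tube widens in place of keeping a narrow lumen, and many of the proteins behind cystic disease work at the primary cilium or help to make proteins that do. Polycystin-1, a large receptor-like protein, and polycystin-2, a cation channel, form a complex in the cilium, and loss of either causes autosomal dominant polycystic kidney disease, in which pancreatic cysts also occur. Bicc1 encodes an RNA-binding protein, and mice that lack it develop cystic kidneys. In kidney it has been described to keep Pkd2 mRNA from being repressed by microRNAs of the miR-17 family, and the comparison of KO with WT asks whether the levels of these genes differ when Bicc1 is lost.

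Sequences of that family and of its matches in the polycystin mRNAs are shown because Bicc1 has been proposed to act on Pkd2 through this family. The matches were found by sequence alone, and whether they are used was not tested. MicroRNA sequences are from RefSeq (GRCm38.p6), with the seed, bases 2 to 8 from the 5′ end, in capitals. MicroRNAs were not measured in these libraries. The mature miR-17-5p lies at chr14:115043684-115043706 on the plus strand and miR-20a-5p at chr14:115044183-115044205 on the plus strand.
miR-17-5p: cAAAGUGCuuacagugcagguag
miR-20a-5p: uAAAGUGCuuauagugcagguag
The longest coding transcript of each gene in GENCODE M21 (GRCm38) was searched on its own strand for GCACTTT, the 7 bases that pair with this seed. Pkd2 and Pkd1 each had 1 match in the 3′ UTR, in capitals here with the bases around it.
Pkd2 site: gaccaattgttataattttctGCACTTTaa
Pkd1 site: ctgtccacatatggggcttctGCACTTTaa
The Pkd2 stretch lies at chr5:104503800-104503829 on the plus strand, and its match covers bases 133 to 139 of a UTR of 2131 bases. The Pkd1 stretch lies at chr17:24595711-24595740 on the plus strand, with its match at bases 193 to 199 of a UTR of 969 bases. Such a match was present in 18% of the 2696 coding-gene UTRs within 20% of the length of that of Pkd2, and in 8.17% of the 2618 near the length of that of Pkd1. Glis3, Vhl and Sec63 also had 1 match each, and Pkhd1, Dzip1l, Prkcsh, Ganab and Glis2 had none. These coordinates belong to GRCm38, whereas the deposited values were made on mm9.

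The files hold a normalized, non-negative expression value per gene with a floor of 0.01 and no stated unit, so single genes are compared between libraries, and levels are not compared between genes. The 6 sums ranged from 674295 to 716255, which are not read totals, and depth is unknown. The largest difference among the libraries was not genotype. The first principal component held 57.3% of the variance and put KO 1, KO 2 and WT 3 on one side and KO 3, WT 1 and WT 2 on the other. Spearman's rho across genes between GC content and a gene's deviation in a library was 0.43 to 0.62 in the first 3 and -0.67 to -0.20 in the others. For the 10 genes the log2 change is therefore also given after a correction for GC content and within each side, first where GC-rich genes are high (KO 1 and KO 2, set against WT 3) and then on the other (KO 3, set against WT 1 and WT 2). For most other named genes it is given after the correction alone. Bicc1 itself separated the genotypes: it was 3.96, 4.91 and 4.48 in KO 1 to KO 3, against 19.7, 19.5 and 18.2 in WT 1 to WT 3, and it fell by 1.89 in log2(value + 1), with an SE of 0.087 and an adjusted p of 0.00067 by limma.

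Pkd2 (ENSMUSG00000034462), which encodes the channel polycystin-2, was lower in every KO library than in any WT library. Its value was 5.11, 6.05 and 5.76 in KO 1, KO 2 and KO 3, against 10.7, 11.6 and 9.53 in WT 1, WT 2 and WT 3. The highest KO value lay well under the lowest WT value, and the libraries of each group lay close together. The mean was 5.64 ± 0.484 in KO, against 10.6 ± 1.04 in WT (SD, n = 3 each), a KO level of 53.2% of WT. On the log2(value + 1) scale the change was -0.80 (SE 0.096, 95% interval -1.03 to -0.58). The adjusted p over all tested genes was 0.129 in limma with Benjamini-Hochberg adjustment, so Pkd2 did not pass the threshold of 0.05, although only 4 genes had a lower p and only 10 a more negative change. The change was of like size on both sides of the first component, -0.68 between KO 1 with KO 2 and WT 3, and -0.84 between KO 3 and the mean of WT 1 with WT 2. After GC correction it was -0.81 (95% interval -0.99 to -0.63) and passed, with an adjusted p of 0.0432 in limma. In bulk tissue, fewer cells that express a gene and less RNA per cell cannot be told apart.

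Pkd1 (ENSMUSG00000032855), which encodes the receptor-like partner polycystin-1, had its higher mean in KO and a wide spread. Its value was 20.1, 29.2 and 25.0 in KO 1, KO 2 and KO 3, against 13.3, 20.3 and 15.3 in WT 1, WT 2 and WT 3. The groups overlapped by a narrow margin, since WT 2 lay just above KO 1, and KO 2 was the highest library of all. The mean was 24.8 ± 4.58 in KO, against 16.3 ± 3.58 in WT (SD, n = 3 each), and the log2 change was 0.58 (SE 0.176, 95% interval 0.17 to 0.99), with an unadjusted p of 0.0117 and an adjusted p of 0.469 in limma. Pkd1 is richer in GC than Pkd2, at 56.8% against 49.0% of the longest coding transcript. Its change was 0.63 and 0.58 within the 2 sides of the first component, and 0.40 after GC correction (95% interval -0.048 to 0.85, adjusted p 0.597). The tail of Pkd1 runs into that of its neighbour Tsc2, the tuberous sclerosis gene on the opposite strand: 693 bases, 3.98% of the exonic bases of Pkd1, are shared, and the libraries carry no strand information. Tsc2 was 3.82, 4.43 and 3.56 in KO 1 to KO 3, against 2.85, 3.35 and 3.39 in WT 1 to WT 3, with a log2 change of 0.23 (adjusted p 0.469) that was 0.10 after GC correction.

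The means of both polycystin genes lay in opposite directions, and their ratio is given as a description. The value of Pkd1 divided by that of Pkd2 was 3.93, 4.83 and 4.35 in KO 1 to KO 3, against 1.25, 1.75 and 1.6 in WT 1 to WT 3. The ratio does not depend on how libraries are scaled, but it is not a ratio of molecules. The mean ratio was 4.37 ± 0.448 in KO, against 1.53 ± 0.258 in WT (SD, n = 3 each), a 2.87-fold difference of geometric means. On the log2 scale the difference was 1.52, and it was 1.44 and 1.56 within the sides of the first component and 1.21 after GC correction. The pairing of these genes in a ratio was chosen with their values known, so the ratio restates both results and no p-value is given for it.

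**Figure D1:**
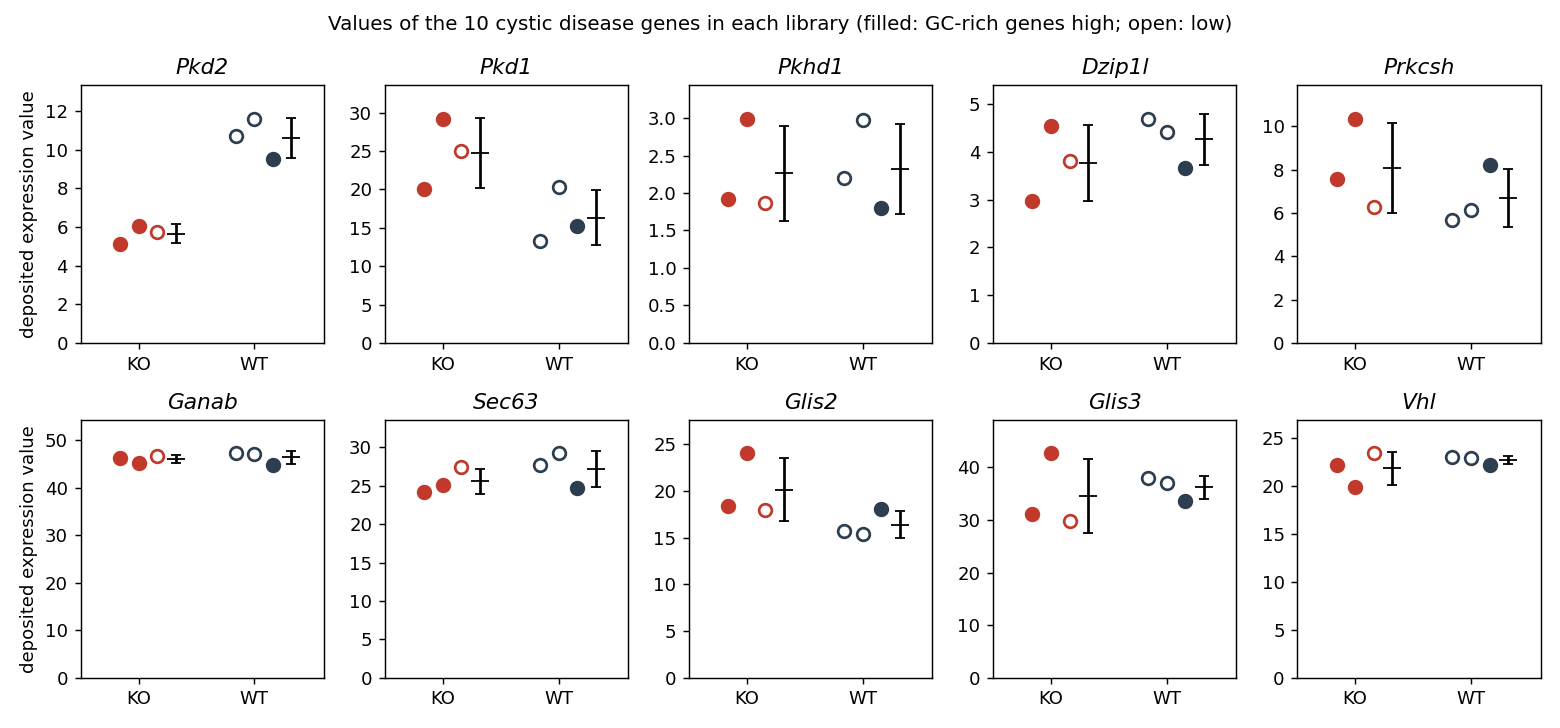
Deposited expression value (vertical axis, from 0) of each of the 10 genes in the 3 KO libraries (left, red) and the 3 WT libraries (right, dark blue), ordered 1 to 3 within a group, with the mean and SD as a black bar. Filled points are KO 1, KO 2 and WT 3, the side of the first component on which GC-rich genes are high. Pkd2 is the only panel without overlap, with KO at 5.11 to 6.05 and WT at 9.53 to 11.6.

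Pkhd1 and Dzip1l, the genes of autosomal recessive polycystic kidney disease, showed no difference beyond the spread. Pkhd1 (ENSMUSG00000043760) encodes fibrocystin, a membrane protein of cilia in kidney tubules and in bile and pancreatic ducts. It was 1.93, 2.99 and 1.86 in KO 1 to KO 3, against 2.19, 2.98 and 1.80 in WT 1 to WT 3, so KO 2 and WT 2 were high and the groups covered the same range. Its log2 change was -0.030 (95% interval -0.43 to 0.37, adjusted p 0.946 in limma) and -0.011 after GC correction, but 0.29 and -0.32 within the sides of the first component. Dzip1l (ENSMUSG00000037784) encodes a protein of the ciliary transition zone, the gate at the base of the cilium. It was 2.96, 4.54 and 3.81 in KO 1 to KO 3, against 4.70, 4.43 and 3.67 in WT 1 to WT 3, with a log2 change of -0.15 (95% interval -0.47 to 0.17, adjusted p 0.629). That change was -0.26 after GC correction, and 0.0063 and -0.21 within the sides.

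Ganab, Prkcsh and Sec63 act in the endoplasmic reticulum, where polycystin-1 and other membrane proteins are folded, and their mutation causes polycystic liver disease, in the case of Ganab with kidney cysts. Ganab (ENSMUSG00000071650), the catalytic subunit of glucosidase II, was the steadiest of the 10. It was 46.3, 45.2 and 46.8 in KO 1 to KO 3, against 47.3, 47.2 and 44.8 in WT 1 to WT 3. Its log2 change was -0.0094 with a 95% interval of -0.15 to 0.13, the narrowest interval of the 10 genes. It was -0.054 after GC correction, and 0.031 and -0.014 within the sides. Prkcsh (ENSMUSG00000003402), the other glucosidase II subunit, was 7.56, 10.4 and 6.29 in KO 1 to KO 3, against 5.69, 6.16 and 8.22 in WT 1 to WT 3. The high libraries were KO 1, KO 2 and WT 3, the side on which GC-rich genes are high, and 57.4% of its transcript is GC. The log2 change of Prkcsh was 0.23 (95% interval -0.20 to 0.66, adjusted p 0.584), and 0.032 after GC correction (95% interval -0.21 to 0.27). Within the sides it was 0.097 and 0.075. Sec63 (ENSMUSG00000019802), a partner of the protein translocation channel, was 24.2, 25.2 and 27.4 in KO 1 to KO 3, against 27.7, 29.2 and 24.7 in WT 1 to WT 3. The groups overlapped, and its log2 change was -0.084 (95% interval -0.28 to 0.12, adjusted p 0.664). It was -0.011 after GC correction, and -0.0023 and -0.051 within the sides.

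Glis2 and Glis3 encode zinc finger transcription factors related to the Gli factors of Hedgehog signalling. Mutation of Glis2 causes nephronophthisis, a cystic kidney disease of childhood, and mutation of Glis3 causes neonatal diabetes with cysts in kidney and pancreas. Glis2 (ENSMUSG00000014303) was 18.4, 24.0 and 18.0 in KO 1 to KO 3, against 15.7, 15.4 and 18.1 in WT 1 to WT 3. Only WT 3 reached the KO range, and KO 2 was the highest. The log2 change was 0.27 (95% interval -0.013 to 0.56, adjusted p 0.469), and 0.067 after GC correction (95% interval -0.091 to 0.23). Within the sides of the first component it was 0.21 and 0.20. Of the exonic bases of Glis2, 10.4% are shared with Pam16 on the opposite strand, a mitochondrial import gene at 4.38, 4.50 and 4.25 in KO 1 to KO 3, against 3.18, 3.99 and 4.60 in WT 1 to WT 3. The log2 change of Pam16 was 0.14, and -0.050 after GC correction.

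Glis3 (ENSMUSG00000052942) is expressed in the pancreatic epithelium and acts upstream of Neurog3 and the insulin genes. It was 31.1, 42.7 and 29.8 in KO 1 to KO 3, against 38.0, 37.0 and 33.6 in WT 1 to WT 3. KO libraries were both the highest and the lowest, and the log2 change was -0.082 (95% interval -0.40 to 0.23, adjusted p 0.792). It was -0.11 after GC correction, and 0.11 and -0.32 within the sides. Vhl (ENSMUSG00000033933) encodes the part of a ubiquitin ligase that recognises the hypoxia-inducible factors, and its mutation causes von Hippel-Lindau disease, with cysts in kidney and pancreas. It was 22.2, 20.0 and 23.4 in KO 1 to KO 3, against 23.1, 23.0 and 22.2 in WT 1 to WT 3. Only KO 2 stood a little below the rest, and the log2 change was -0.057 (95% interval -0.24 to 0.12, adjusted p 0.744). It was -0.079 after GC correction, and -0.075 and 0.026 within the sides.

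Among the 10 genes 0 passed limma at an adjusted p of 0.05, where 0.0144% of all tested genes did (2 of 13911, Bicc1 and 4930533K18Rik, which overlaps it). At an unadjusted p of 0.05, Pkd1 and Pkd2 passed, where 10.3% of all tested genes did. Pkd2 was the only one of the 10 whose groups did not overlap, lower in KO, as were 8.77% of all tested genes. The median log2 change was -0.043 over the 10 genes and 0.014 over all tested genes, which turned to -0.0095 with median-ratio scaling and -0.0085 after GC correction. Of the 5 genes with a GCACTTT match in the 3′ UTR, Pkd2 and Pkd1 had the lowest and highest changes, -0.80 and 0.58. The others were -0.084 for Sec63, -0.082 for Glis3 and -0.057 for Vhl. The 5 genes without a match ranged from -0.15 for Dzip1l to 0.27 for Glis2.

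**Figure D2:**
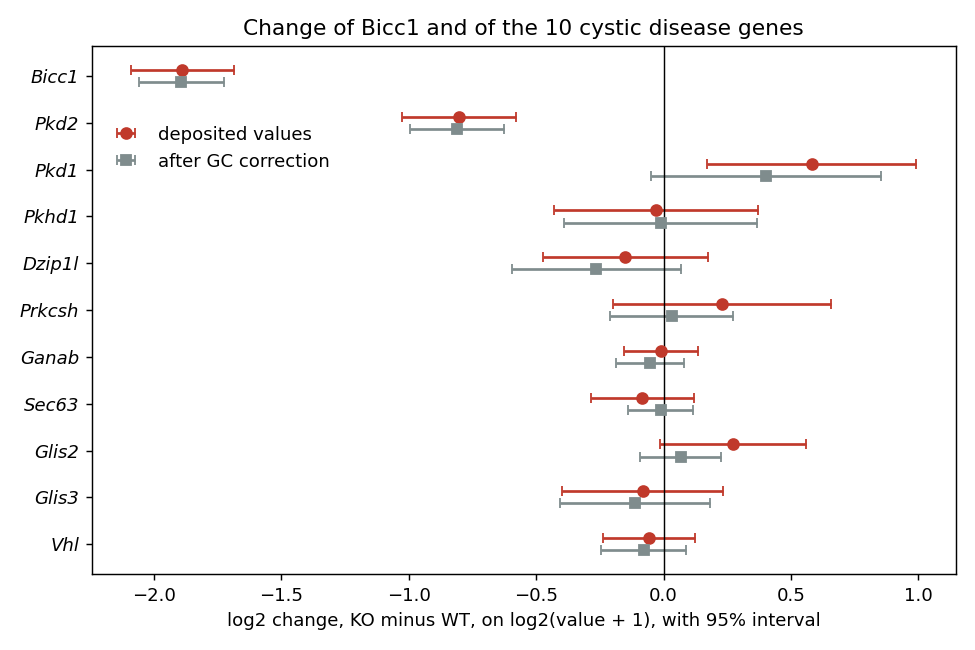
Log2 change, KO minus WT, on log2(value + 1) (horizontal axis) of Bicc1 and the 10 genes, with 95% intervals from limma. Red circles are the deposited values and grey squares the values after GC correction. Pkd2 keeps its place, at -0.80 and -0.81, while Pkd1, Glis2 and Prkcsh move towards 0 after the correction.

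**Figure D3:**
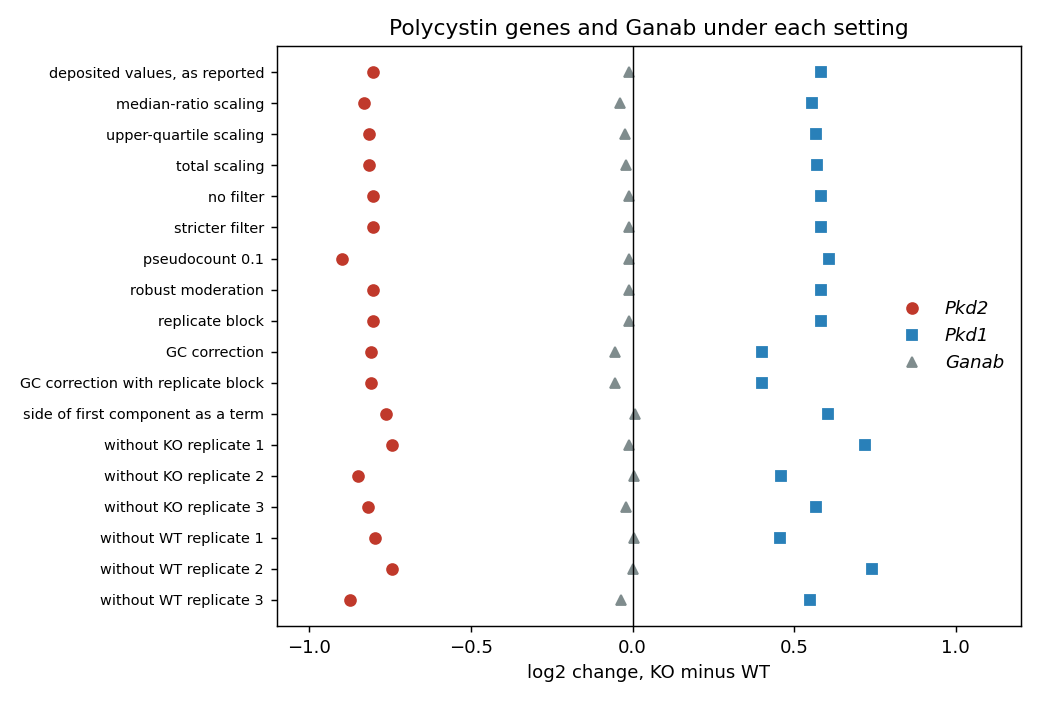
Log2 change, KO minus WT (horizontal axis), of Pkd2 (circles), Pkd1 (squares) and Ganab (triangles) under each way of processing the values and without each library in turn. Pkd2 stays between -0.90 and -0.74, and Pkd1 between 0.40 and 0.74.

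The genes that work around these 10 were read as lists, with no member past limma's adjusted threshold in any of them. For comparison with the counts of each list, means over all 13911 tested genes were higher in KO for 7448 and lower for 6463. Among other genes of nephronophthisis and cystic kidney disease, 19 of 20 were in the files and 16 were tested, with means higher in KO for 9 and lower for 7, and a median log2 change of 0.041. Groups did not overlap in 4 of the 16, against 16.4% of all tested genes, and 2 had an unadjusted p under 0.05, against 10.3% of all tested genes. The median of the list was 0.0079 after GC correction. Nek8, a ciliary kinase that binds the same scaffold proteins as Bicc1, was 1.72 ± 0.131 in KO, against 1.33 ± 0.123 in WT (SD, n = 3 each; adjusted p 0.469). After GC correction its log2 change of 0.22 was 0.039. Cep164, a protein of the ciliary base, was 4.47 ± 0.378 in KO, against 3.80 ± 0.297 in WT (adjusted p 0.471), and its log2 change of 0.19 was -0.018 after that correction. Tmem67, a membrane protein of the transition zone, was 1.01 ± 0.049 in KO, against 1.25 ± 0.052 in WT (adjusted p 0.471), and its log2 change of -0.16 was -0.15 after it.

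Genes of protein translocation and N-glycan handling in the endoplasmic reticulum, the pathway of Ganab, Prkcsh and Sec63, had lower means in KO for most members. Of 15 tested, means were lower in KO for 12 and higher for 3, with a median log2 change of -0.13. In 6 of the 15 no KO library reached the lowest WT library, against 8.77% of all tested genes, and 4 had an unadjusted p under 0.05, against 10.3% of all tested genes. Sec61b, a subunit of the translocation channel, was 36.4 ± 2.24 in KO, against 43.5 ± 3.76 in WT (SD, n = 3 each). The chaperone Canx (calnexin) was 129.9 ± 4.84 in KO, against 149 ± 7.78 in WT. Dnajc3, a co-chaperone of the stressed endoplasmic reticulum, was 21.4 ± 2.39 in KO, against 25.6 ± 0.985 in WT. Hspa5, the chaperone BiP, was 386 ± 37.2 in KO, against 453 ± 28.4 in WT, and these groups overlapped. The adjusted p in limma was 0.469 for each of these 4. Their log2 changes, and the values after GC correction, were -0.25 and -0.30 for Sec61b, -0.19 and -0.11 for Canx, -0.25 and -0.18 for Dnajc3, and -0.23 and -0.19 for Hspa5. The median of the list was -0.100 after the correction.

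In the list of the Vhl complex and the hypoxia-inducible factors 0 genes passed the adjusted threshold in either direction. Of 14 tested, means were higher in KO for 10 and lower for 4, the median was 0.12 (0.0066 after GC correction), and 5 had an unadjusted p under 0.05, against 10.3% of all tested genes. The lowest KO library exceeded the highest WT library for 4 genes, against 7.67% of all tested genes: Slc2a1, Bnip3, Pgk1 and Egln3, all targets of these factors. Slc2a1, which carries glucose into cells, averaged 16.8 ± 2.47 in KO, against 10.7 ± 1.5 in WT. Bnip3, a mitochondrial protein, was 10.4, 9.89 and 12.3 in KO 1 to KO 3, against 8.40, 7.44 and 7.06 in WT 1 to WT 3. Pgk1, a glycolytic enzyme, was 162, 147 and 157 in KO 1 to KO 3, against 131, 118 and 119.9 in WT 1 to WT 3. Egln3, a prolyl hydroxylase that marks the factors for Vhl, was 2.36 ± 0.603 in KO, against 1.46 ± 0.156 in WT (SD, n = 3 each). The adjusted p was 0.469 for each of these 4 genes in limma. Their log2 changes, and the values after GC correction, were 0.60 and 0.49 for Slc2a1, 0.46 and 0.54 for Bnip3, 0.33 and 0.32 for Pgk1, and 0.44 and 0.39 for Egln3. Vegfa and Egln1 of the same list overlapped. Vegfa was 8.23, 13.9 and 11.6 in KO 1 to KO 3, against 8.76, 8.28 and 8.70 in WT 1 to WT 3. Its log2 change was 0.33, and 0.29 after GC correction, and that of Egln1 was 0.12, and -0.040 after the correction. No KO library reached the lowest WT library for 3 genes, against 8.77% of all tested genes: the ligase subunits Eloc, Cul2 and Rbx1. After GC correction their log2 changes were nearer to 0, at -0.10 in place of -0.21 for Eloc, -0.044 in place of -0.14 for Cul2 and -0.098 in place of -0.12 for Rbx1. The subunit Elob overlapped, at 35.1, 33.7 and 23.7 in KO 1 to KO 3, against 26.5, 25.1 and 33.1 in WT 1 to WT 3. These subunits, Vegfa and Egln1 were named after their values were seen.

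Among relatives and partners of the Glis factors 9 were tested, with means higher in KO for 6 and lower for 3, and a median of 0.10 (0.00054 after GC correction). Neurog3, the switch gene of endocrine progenitors, was 34.0, 50.9 and 35.1 in KO 1 to KO 3, against 66.4, 55.4 and 58.3 in WT 1 to WT 3 (log2 change -0.59, adjusted p 0.469, and -0.79 after GC correction). Gli2, an effector of Hedgehog signalling, was 2.93 ± 0.489 in KO, against 2.26 ± 0.099 in WT, and Ccnd2, a cyclin, was 78.0 ± 0.931 in KO, against 71.7 ± 2.85 in WT (SD, n = 3 each). Sufu, which restrains the Gli factors, was 10.9, 11.4 and 10.6 in KO 1 to KO 3, against 8.94, 9.69 and 10.7 in WT 1 to WT 3. After GC correction the log2 change was 0.063 in place of 0.26 for Gli2, 0.00054 in place of 0.16 for Sufu and 0.14 in place of 0.12 for Ccnd2. Groups did not overlap in 3 of the 9, against 16.4% of all tested genes.

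Of 15 tested channel, trafficking and ciliary genes reported to work with polycystins or fibrocystin, means were higher in KO for 10 and lower for 5, with a median of 0.043 (-0.0017 after GC correction). Groups did not overlap in 1 of the 15, a smaller share than the 16.4% of all tested genes. That gene was Pacs1, a sorting adaptor, at 11.1 ± 0.445 in KO, against 9.20 ± 0.912 in WT, whose log2 change of 0.25 was 0.097 after GC correction (adjusted p 0.669 in limma). Itpr2, a calcium channel of the endoplasmic reticulum, was 33.5 ± 6.00 in KO, against 29.2 ± 3.89 in WT. Rabep1 and Gga1, adaptors for transport of polycystins to the cilium, were 20.1 ± 1.6 and 2.30 ± 0.576 in KO, against 21.8 ± 1.75 and 1.76 ± 0.495 in WT. After GC correction the log2 change was 0.17 in place of 0.19 for Itpr2, -0.043 in place of -0.12 for Rabep1 and -0.024 in place of 0.26 for Gga1.

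**Figure D4:**
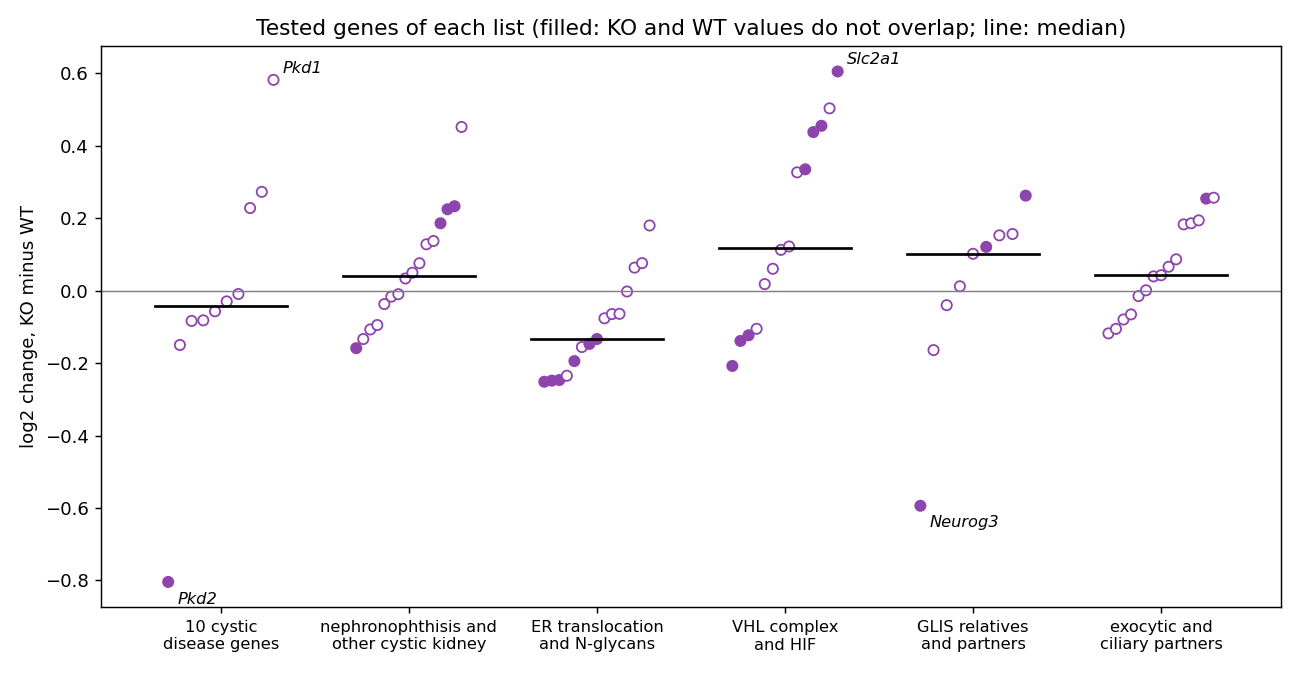
Log2 change, KO minus WT (vertical axis), of every tested gene of each list, sorted within the list, with the median as a line. Filled points have KO and WT values that do not overlap. Pkd2 at -0.80 is the lowest point of all lists, and Slc2a1 at 0.60 and Pkd1 at 0.58 are the highest.

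Marker genes were read as sums of their values and gene by gene, since a sum follows the markers with the highest values. Of 8 markers of pancreatic epithelium, all present, means were lower in KO for 6, and the sum was 439 to 633 in KO and 496 to 581 in WT. Neurog3 was the 1 of them without overlap, lower in KO. Of 7 mesenchymal markers, means were higher in KO for 3, and lower for Col1a1, Col3a1, Pdgfra and Isl1, which overlapped. The 3 higher ones did not overlap, against 7.67% of all tested genes, although the sum did, at 284 to 328 in KO and 305 to 308 in WT. They were the receptor gene Pdgfrb (30.7 ± 1.72 in KO, against 24.6 ± 2.33 in WT) and the homeobox genes Barx1 (3.69 ± 1.17 in KO, against 1.78 ± 0.815 in WT) and Nkx3-2 (2.29 ± 0.271 in KO, against 0.981 ± 0.431 in WT; SD, n = 3 each). The adjusted p was 0.469 in limma for each of these 3, and after GC correction their log2 changes were 0.18 in place of 0.31, 0.46 in place of 0.77 and 0.41 in place of 0.75. The WT mean of Nkx3-2 was under 1, so it passed the filter of a mean of at least 1 through its KO values.

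The sum of 5 endothelial markers was higher in every KO library, at 84.6 to 106 in KO and 73.1 to 75.6 in WT. Pecam1, Cdh5 and Cldn5 did not overlap and were higher in KO, against 7.67% of all tested genes, while Kdr and Tek overlapped. After GC correction the log2 change was 0.32 in place of 0.35 for Pecam1, 0.25 in place of 0.32 for Cdh5 and 0.061 in place of 0.31 for Cldn5. The sum of 4 leukocyte markers was higher as well, at 16.1 to 18.6 in KO and 12.1 to 15.8 in WT. Tyrobp and Cd68 did not overlap, against the same 7.67%, Csf1r overlapped, and Ptprc, with a mean under 1, was not tested. After GC correction the log2 change was 0.31 in place of 0.44 for Tyrobp and 0.34 in place of 0.43 for Cd68. Sums of 3 mesothelial markers (18.1 to 34.8 in KO, 22.7 to 24.8 in WT) and of 4 liver markers (18.1 to 23.1 in KO, 22.6 to 24.2 in WT) overlapped. Of 8 markers of nephric tubule and kidney, 5 were in the files, summing to 3.49 to 6.01 in KO and 1.26 to 2.02 in WT. That gap follows Six2, and without Six2 the sums of the remaining markers overlapped. Among the 5 only Six2, also a gene of stomach mesenchyme, had a mean of at least 1 and was tested. Six2 passed that filter through its KO values alone, with every WT value under 1, so its change is a description. It was 4.50, 1.35 and 3.14 in KO 1 to KO 3, against 0.122, 0.119 and 0.387 in WT 1 to WT 3 (adjusted p 0.469 in limma). The log2 change of Six2 was 1.65, and 1.38 after GC correction. The tubule factor Pax8 lay at 0.0883 to 0.101 in KO and 0.107 to 0.114 in WT, and Emx2 at 0.254 to 0.617 in KO and 0.0762 to 0.241 in WT. Nphs1 and Cdh16 overlapped, at 0.490 to 0.787 and 0.433 to 0.997 in KO, against 0.434 to 0.768 and 0.519 to 0.763 in WT. The single markers given here were named after their values were seen. No marker was at the floor of 0.01 in all libraries. The part of cell composition in the differences of Pkd2 and Pkd1 was not tested.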

How the data were processed

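Total RNA of E13.5 dorsal pancreas was made into libraries with the TruSeq RNA kit v2, per the labels' protocols. That kit does not mark strand. The submitters' processing notes name CASAVA 1.82, Bowtie 0.12.7 and build mm9. How genes were annotated, counted and normalized was not given in the sources used here. Each deposited value is a non-negative signal for 1 gene, with a floor of 0.01. No read counts could be derived, so there are no counting intervals.

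Symbols were found for 22624 of 24389 identifiers. Genes with a mean of at least 1 (13911) were tested on log2(value + 1), which understates changes of low genes, with limma 3.58.1 in R 4.3.3 (mean-variance trend, group as the only term, two-sided, Benjamini-Hochberg over all tested genes, threshold 0.05). GC correction was a loess per library (span 0.3) over the 13385 genes (96.2%) with a GC content in GENCODE M21, used otherwise only for names, exon overlap and UTR sequence. The fit was tested on simulated data. Alternatives were 3 scalings of libraries, no filter, a filter that asks for 3 libraries at 1 or more, robust moderation, a pseudocount of 0.1, the replicate number as a block, GC correction with and without it, a term for the side of the first component, and leaving out each library.

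The genes and lists were chosen with earlier results of these data known, so p-values are adjusted over all tested genes only. Genes named from a list are up to 4 with the lowest p, the 5 nearest in pattern to Pkd2, and genes that share exons with one of the 10. Others are said to be named after their values were seen. Pkhd1 also shares 1.45% of its exonic bases with 4930486I03Rik on the opposite strand, which had a mean under 1 and was not tested. Sec63 shares 1.97% with Gm26860 on the opposite strand, which had no value in these data. Python 3.11.15 with pandas 2.3.3, numpy 2.4.6, scipy 1.17.1 and matplotlib 3.10.9 made the tables and figures.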

Additional observations from a re-analysis of the deposited data

How the results depend on the processing

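The change of Pkd2 was negative under every alternative run, from -0.90 (pseudocount 0.1) to -0.74, and its adjusted p ranged from 0.0432 to 0.771. It passed the threshold only after GC correction (-0.81), the 1 setting in which a gene of the 10 passed; the cause was not tested. Without 1 library it ranged from -0.87 to -0.74. The number of genes past the threshold, 2 as reported, was 4 after GC correction, 1 with no filter, 0 with the replicate block and 1 with GC correction and the replicate block. It ranged from 1 (without KO 1, KO 3, WT 1 or WT 3) to 7 (without KO 2).

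Same-numbered libraries did not deviate together (r of deviations -0.22, -0.40 and -0.64 for numbers 1 to 3, and 0 of 6 libraries correlated best with their own number), so the numbers were not read as pairs. With the replicate block Bicc1 stayed at -1.89 with an adjusted p of 0.0880.

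The other 9 genes gave 153 values over 17 alternatives, of which 0 passed and 9, in 4 genes, changed sign. Without 1 library, Pkhd1 ranged from -0.18 to 0.11, Glis3 from -0.24 to 0.011, Vhl from -0.11 to 0.0039 and Ganab from -0.035 to 0.0039. Without turning sign, Prkcsh ranged from 0.053 (without KO 2) to 0.37 (without KO 3), Dzip1l from -0.26 (without KO 2) to -0.023 (without KO 1), Glis2 from 0.14 (without KO 2) to 0.35 (without KO 3) and Sec63 from -0.15 (without WT 3) to -0.032 (without WT 2). With a term for the side of the first component Ganab was 0.0085. After GC correction, with or without the replicate block, Pkd2l2 was 0.057, Cep164 -0.018, Gga1 -0.024 and Pam16 -0.050. Pkd2l2 was 0.032 with that term and -0.097 to 0.067 without 1 library. Depth is unknown, so what low values could have shown is not known.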

Other observations

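Most relatives of the polycystins and fibrocystin had means under 1 in these pancreata. Of 7 (Pkd1l1, Pkd1l2, Pkd1l3, Pkd2l1, Pkd2l2, Pkdrej and Pkhd1l1) only Pkd2l2, a paralogue of the channel Pkd2, had a mean of at least 1. It was 2.31, 3.06 and 2.86 in KO 1 to KO 3, against 2.79, 3.20 and 2.40 in WT 1 to WT 3, so the groups overlapped, with a log2 change of -0.020 (adjusted p 0.946 in limma) whose sign turned after GC correction (0.057).

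The tested genes nearest in pattern to Pkd2 were Calcr, Cer1, Steap1, Dcn and Fam241b, by the root mean square difference of centred log2(value + 1) over the 6 libraries. That difference was 0.097 for Calcr, 0.14 for Cer1, 0.15 for Steap1 and 0.16 for Dcn and Fam241b. Calcr, the calcitonin receptor gene, was 7.96, 10.3 and 8.17 in KO 1 to KO 3, against 17.1, 17.05 and 16.4 in WT 1 to WT 3. Its log2 change of -0.87 had an adjusted p of 0.117 in limma, over alternatives from 0.0269, without KO 2, to 0.806. Cer1, which encodes a secreted antagonist of Nodal and BMP, was 0.904, 1.33 and 0.905 in KO 1 to KO 3, against 2.28, 2.08 and 2.23 in WT 1 to WT 3. Dcn, the matrix proteoglycan decorin, was 37.6, 47.7 and 49.7 in KO 1 to KO 3, against 71.2, 71.2 and 56.2 in WT 1 to WT 3. Cer1, Steap1, Dcn and Fam241b each had an adjusted p of 0.469 in limma. After GC correction the log2 change was -0.83 in place of -0.87 for Calcr and -0.64 in place of -0.65 for Cer1. It was -0.53 in place of -0.56 for Steap1, -0.47 in place of -0.55 for Dcn and -0.73 in place of -0.59 for Fam241b. Nearness of pattern is a description of these 6 libraries, and a gene near to Pkd2 had to be lower in KO.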
